A study of Caenorhabditis elegans with 2 samples.

Results

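Heat shock proteins and DnaJ proteins form the core of the chaperone system of Caenorhabditis elegans, and where the tagged zinc finger protein Y55F3AM.14 bound near their genes is described here. The members are the protein-coding genes of the RefSeq annotation of WBcel235 whose symbol starts with hsp- or dnj-. They number 53 of 19971 protein-coding genes on the nuclear chromosomes, 24 hsp genes and 29 dnj genes. The rule reads symbols and no binding value. The lists of constitutive and stress-induced members used below were drawn up with earlier results of these data known.

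Hsp70 proteins hold unfolded stretches of other proteins in a cycle driven by ATP. DnaJ proteins, also called Hsp40 or J-domain proteins, hand clients to Hsp70 and speed up its ATP hydrolysis, Hsp110 proteins exchange its nucleotide, and Hsp90 proteins mature kinases, receptors and other clients. Small heat shock proteins bind unfolding clients without ATP. Some of these genes are transcribed in unstressed animals, and some are induced by heat through the heat shock factor HSF-1 or by misfolding inside the endoplasmic reticulum or mitochondria. A gene can do both, so the lists used here are not a strict division. HSF-1 recognises heat shock elements, inverted repeats of the pentamer nGAAn.

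The data are chromatin immunoprecipitation with an anti-GFP antibody followed by sequencing, in 2 biological replicates of 1 group. The animals were whole L2 larvae of strain OP608, of pooled male and female sex and 42 hours of age, synchronised by bleaching and starvation at L1. They carried the unc-119(tm4063) mutation and the integrated transgene wgIs608, which holds Y55F3AM.14 fused to TY, EGFP and 3xFLAG tags together with an unc-119(+) rescue marker. Both replicates came from that 1 transgenic line, the labels name no change to the endogenous Y55F3AM.14 gene (znf-782 in the annotation), and no untagged strain, other factor or stressed group was among the samples.

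The authors deposited an optimal list of 1604 regions and relaxed lists of 29629 regions for both replicates pooled, 29577 for replicate 1 and 28681 for replicate 2. The relaxed lists hold background as well as peaks. Each region carries a score, the caller's signal value, and a summit. The optimal list consisted of the 1604 highest-scoring pooled regions, with scores of 110.3 to 1466 and a median of 150.2. A region was given to a gene when its summit was no more than 500 bp from an annotated transcript start of that gene, on either side. Sequencing depth is unknown, so scores are compared within a list or set side by side between replicates.

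In all, 10 of the 53 members had an optimal region (18.9%, exact 95% interval 9.44 to 32.0), beside 3.42% of all protein-coding genes. They were the heat shock protein genes hsp-1, hsp-3, hsp-90 and hsp-110 (4 of 24, 16.7%) and the DnaJ genes dnj-12, dnj-13, dnj-14, dnj-19, dnj-28 and dnj-29 (6 of 29, 20.7%). By list, 4 of 6 constitutive genes and 0 of 12 stress-induced genes had one within 500 bp, and 2 of the 12 had one within 1000 bp. Heat-induced genes without an hsp- or dnj- symbol are not in these lists. F44E5.4 and F44E5.5, left out on that ground, each had an optimal region within 500 bp. The 12 include 4 genes in repeated sequence where a 50-base read could not be placed uniquely, which leaves 0 of 8 (allowing up to 37.5%). At the share of all genes, 3.42%, a list of 12 holds less than 1 gene with a region, so the 0 by itself does not set these genes apart. A pooled relaxed region lay at 26 of the 53 members (49.1%, 35.1 to 63.2), beside 33.1% of all genes. Of the 12 stress-induced genes 6 had a pooled relaxed region, 3 of them heat-induced. Of the genes with a relaxed region, 38.5% of the members also had an optimal one, beside 10.4% of the 6607 genes in all. Genes are not replicates, and intervals cover counting error only.

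**Figure D1:**
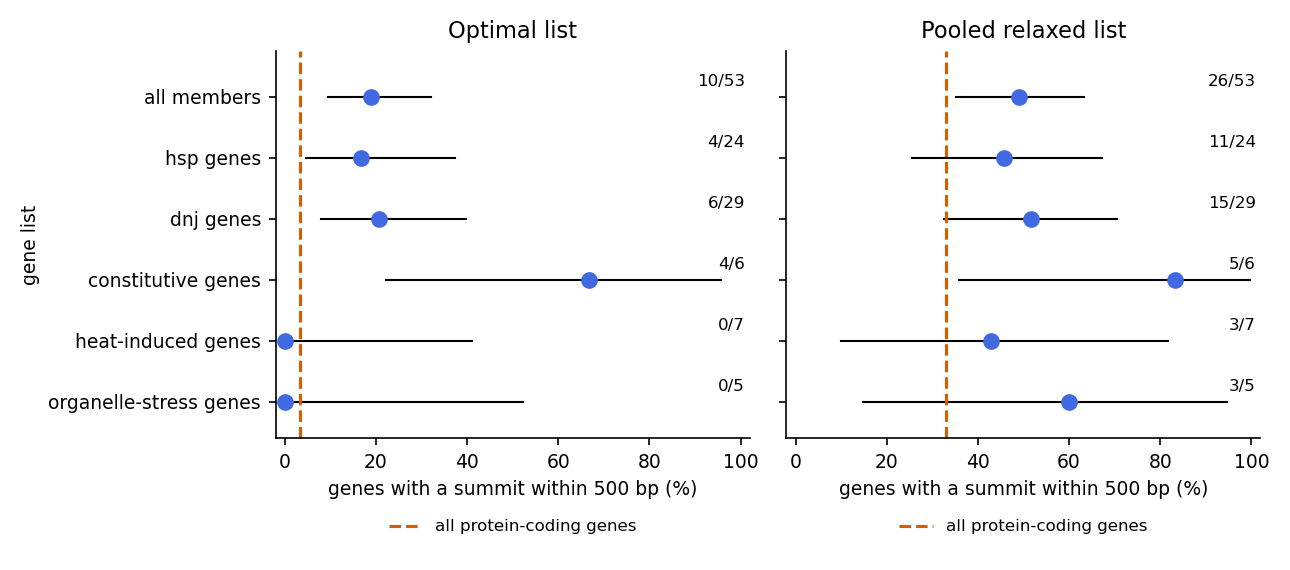
Share of genes with a summit within 500 bp of a start (x axis, %) for each gene list (y axis), in the optimal list (left) and the pooled relaxed list (right). Points are shares, bars exact 95% intervals, numbers the genes with a region over the genes in the list, and the dashed line all protein-coding genes. In the optimal list 4 of 6 constitutive genes stand against 0 of 7 heat-induced genes and 0 of 5 organelle-stress genes. Of the 7, 4 lie in repeated sequence. Heat-induced genes without an hsp- or dnj- symbol are not counted.

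The sequences at the summits are shown because they show which members hold facing heat shock pentamers at the summit and which do not. Each window runs 75 bp to either side of the optimal summit in the reference genome (WBcel235, the coordinates of ce11). It is written 5′ to 3′ on the strand of the member gene, so that the gene lies beyond the right-hand end. Capitals mark GAANNTTC and TTCNNGAA, the arrangements of 2 facing pentamers. Windows of the other 3 members with an optimal region are not shown. The dnj-19 window stops at the first exon of its neighbour nhr-47. The last entry, shown for contrast, is the whole sequence between the divergent heat-induced genes hsp-16.2 (to the left, on the minus strand) and hsp-16.41 (to the right).
hsp-1 (chrIV:17278513-17278663, plus strand): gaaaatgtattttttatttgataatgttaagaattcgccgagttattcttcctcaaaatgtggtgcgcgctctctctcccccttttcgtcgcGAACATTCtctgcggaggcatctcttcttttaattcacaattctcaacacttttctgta
hsp-90 (chrV:14685717-14685867, plus strand): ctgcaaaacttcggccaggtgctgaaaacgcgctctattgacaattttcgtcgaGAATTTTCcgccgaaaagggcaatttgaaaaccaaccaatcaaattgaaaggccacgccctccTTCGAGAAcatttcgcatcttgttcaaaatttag
hsp-110 (chrIII:8447089-8447239, minus strand): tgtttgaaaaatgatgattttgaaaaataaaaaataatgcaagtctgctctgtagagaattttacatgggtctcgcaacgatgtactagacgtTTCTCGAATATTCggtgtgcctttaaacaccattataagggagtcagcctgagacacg
dnj-13 (chrII:11545399-11545549, plus strand): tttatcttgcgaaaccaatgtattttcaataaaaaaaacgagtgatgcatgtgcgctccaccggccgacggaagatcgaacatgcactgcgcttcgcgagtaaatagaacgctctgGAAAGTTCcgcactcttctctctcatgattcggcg
dnj-19 (chrV:5505163-5505252, minus strand): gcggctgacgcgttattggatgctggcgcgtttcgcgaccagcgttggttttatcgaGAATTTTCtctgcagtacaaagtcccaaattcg
hsp-3 (chrX:6092098-6092248, minus strand): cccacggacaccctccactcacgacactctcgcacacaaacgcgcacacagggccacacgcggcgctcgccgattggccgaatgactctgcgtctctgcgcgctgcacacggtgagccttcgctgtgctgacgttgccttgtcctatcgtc
dnj-14 (chrX:4711956-4712106, minus strand): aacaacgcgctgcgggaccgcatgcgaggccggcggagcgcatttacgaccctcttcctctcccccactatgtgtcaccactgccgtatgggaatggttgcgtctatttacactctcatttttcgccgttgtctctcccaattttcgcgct
hsp-16.2/hsp-16.41 (chrV:1804958-1805177, plus strand): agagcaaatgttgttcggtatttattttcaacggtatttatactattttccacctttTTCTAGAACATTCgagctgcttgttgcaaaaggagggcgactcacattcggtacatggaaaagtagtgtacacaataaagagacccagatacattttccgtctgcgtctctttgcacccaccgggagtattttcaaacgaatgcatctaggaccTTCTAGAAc

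The constitutive list held 6 genes, and 4 of them had an optimal region (66.7%, exact 95% interval 22.3 to 95.7). The region of hsp-1, the constitutive cytosolic Hsp70, lay between protein-coding genes at chrIV:17278478-17278707 and had a score of 543, with 309.8 in replicate 1 and 231 in replicate 2. It was region 31 of the pooled list, 31 of replicate 1 and 33 of replicate 2, and its summit lay 371 bp upstream of the start. The rank was thus nearly the same in each list, and hsp-1 was also the closest protein-coding gene to this summit.

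The hsp-90 region (chrV:14685715-14685829) scored 346, with 176 in each replicate. The hsp-90 gene, long known as daf-21, encodes the cytosolic Hsp90, and the summit lay 368 bp upstream of it and 307 bp upstream of the divergent gene C47E8.4, a FAM50 homolog. The region of hsp-3, which encodes the constitutively expressed BiP of the endoplasmic reticulum, lay at chrX:6091961-6092384 and scored 272, with 155 in replicate 1 and 125 in replicate 2. Its summit lay 388 bp upstream, with no other annotated start within 500 bp. Its window was the most GC-rich of the member windows, at 64.2%, against a median of 47.7% over all optimal regions.

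The fourth, hsp-110, encodes the Hsp110 nucleotide exchange factor of Hsp70. Its region (chrIII:8446952-8447375) scored 161, with 91.1 in replicate 1 and 72.0 in replicate 2, and the summit lay 255 bp upstream. The same summit lay 189 bp upstream of the divergent proteasome subunit gene rpn-3, so a region here cannot be given to 1 of the genes. All 4 constitutive regions were among the 1604 highest-scoring regions of both replicate lists. They were also among the 802 highest of the optimal list, a threshold that 7 of the 53 members passed (13.2%, beside 1.81% of all genes).

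The remaining constitutive genes encode small heat shock proteins, hsp-25 and hsp-43, and had no optimal region. At hsp-25, 4 relaxed regions lay within 500 bp of its 3 annotated starts, the strongest with a score of 53.0, near the pooled list's median of 49.7. At hsp-43 none did. Among the 15 small heat shock protein genes (hsp-12, hsp-16, hsp-17, hsp-25 and hsp-43) the count of optimal regions within 500 bp was 0. This allows up to 20% of them, a limit above the 3.42% of all genes, so the 0 by itself does not set them apart.

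Among the DnaJ genes, those for the cytosolic J-domain proteins dnj-19, dnj-13 and dnj-12 are described first, though their scores run from the highest of the 6 to the lowest. The dnj-19 region (chrV:5505181-5505305) was the strongest of all members and region 16 of the pooled list, with a score of 647, and 368 in replicate 1 and 279 in replicate 2. It lay 386 bp upstream of dnj-19, a homolog of the human class A protein DNAJA2, but only 15 bp upstream of the divergent nuclear hormone receptor gene nhr-47. The dnj-13 region (chrII:11545388-11545576) scored 346, with 179 in replicate 1 and 164 in replicate 2, and lay 227 bp upstream. Its gene encodes a class B J-domain protein, and no other protein-coding start was within 500 bp. The dnj-12 gene on chromosome I, related to human DNAJA1, had the lowest score of the 10 members. Its score was 116, with 70.8 in replicate 1 and 38.5 in replicate 2, and it lay 208 bp upstream of dnj-12 and 443 bp upstream of mtx-1, a metaxin gene.

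The other DnaJ genes with an optimal region had scores between those of dnj-13 and dnj-12. The dnj-14 gene encodes the homolog of the synaptic vesicle cysteine string protein. Its region (chrX:4711819-4712242) scored 152, with 73.6 in replicate 1 and 76.8 in replicate 2, and lay 283 bp upstream of dnj-14 and 248 bp upstream of glit-1, a neuroligin-like gene. The dnj-29 gene encodes the homolog of SEC63, a J-domain protein that helps to move new proteins into the endoplasmic reticulum. Its region on chromosome I scored 123, with 75.7 in replicate 1 and 52.6 in replicate 2, and lay 238 bp upstream of dnj-29 and 290 bp upstream of ndua-2, a complex I subunit gene. At dnj-28, also on chromosome I, the score was 121, with 55.5 in replicate 1 and 66.4 in replicate 2. The summit lay 106 bp upstream of dnj-28 and 471 bp upstream of supr-1. A second, relaxed region scored 104 and lay 429 bp upstream of dnj-28 but 148 bp upstream of supr-1, the nearest gene.

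**Figure D2:**
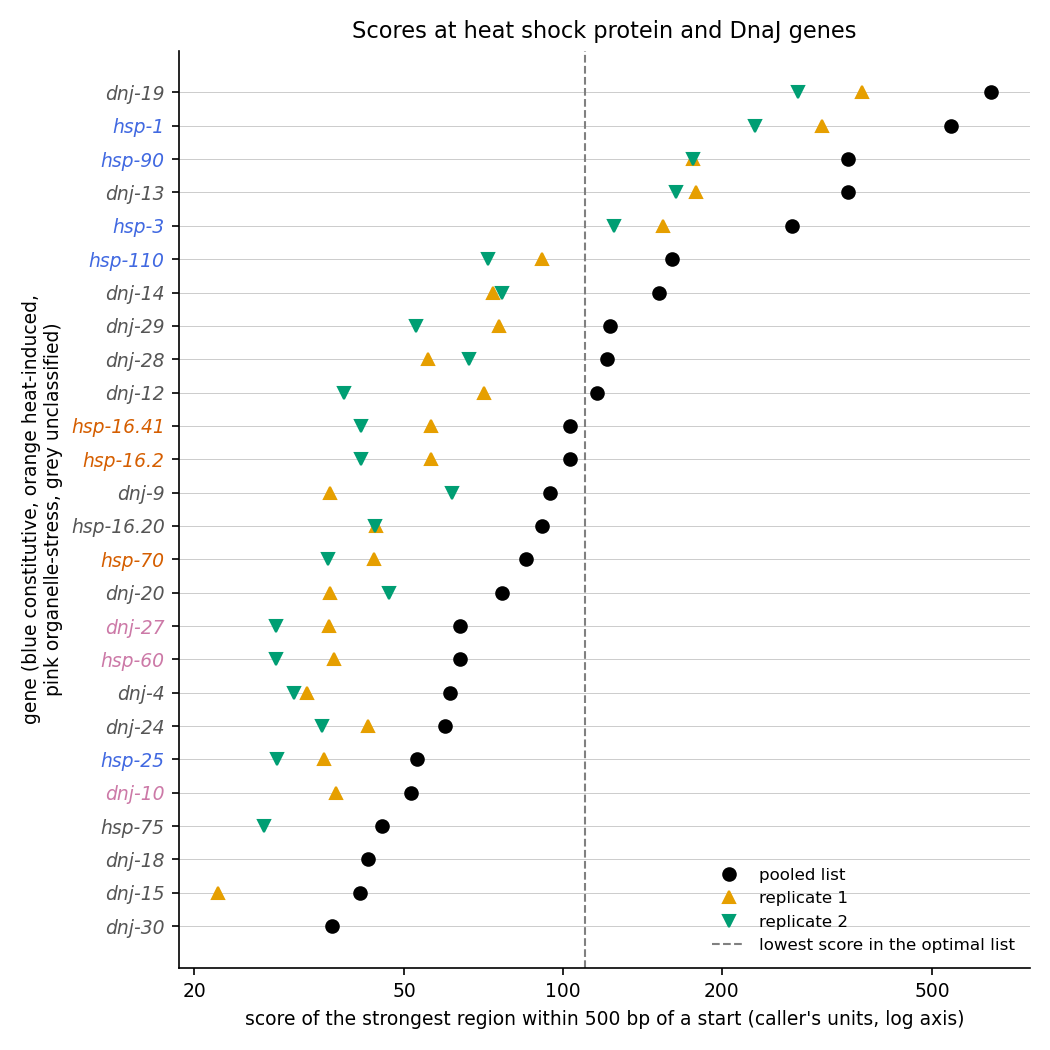
Score of the strongest region within 500 bp of a start (x axis, caller's units, log scale) for the 26 members with a pooled relaxed region (y axis), in the pooled list and in each replicate list. The strongest region was taken in each list separately, so the values of a gene can come from different regions. A missing triangle means no summit within 500 bp in that replicate list. The dashed line is the lowest score of the optimal list, 110.3; the 10 genes to its right run from dnj-19 at 647 to dnj-12 at 116, and the hsp-16.2 and hsp-16.41 pair follows at 103.

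In the replicates, all 10 member regions of the optimal list had a summit in both lists within 100 bp, as did 94.6% of all optimal regions. The ratio of the score in replicate 1 to that in replicate 2 ran from 0.836 (dnj-28) to 1.84 (dnj-12), with a median of 1.25, beside a median of 1.20 and a 5th to 95th percentile range of 0.700 to 2.02 over the 1517 optimal regions in both lists. The dnj-12 score thus leaned most to replicate 1, though within the range of other regions. Spearman's rho between the replicates was 0.903 over the 10 member regions and 0.589 over the 1517, a description over points that share both libraries and were selected on the pooled score. Of the 10, 7 were among the 1604 highest of both replicates. The exceptions were dnj-12 (rank 4132 in replicate 2), dnj-29 (1680 in replicate 2) and dnj-28 (2326 in replicate 1).

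Taking the 1604 highest regions of a single replicate gave 9 members in replicate 1 (17%, beside 3.32% of all genes) and 10 in replicate 2 (18.9%, beside 3.39%). Of these, 7 members were common to the optimal list and both replicates: hsp-1, hsp-3, hsp-90, hsp-110, dnj-13, dnj-14 and dnj-19. Replicate 2 added hsp-6 and dnj-9 and lacked dnj-12 and dnj-29, and replicate 1 lacked dnj-28. The replicate 1 summit nearest to the pooled hsp-6 summit had rank 1566 but lay more than 500 bp from the hsp-6 start.

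**Figure D3:**
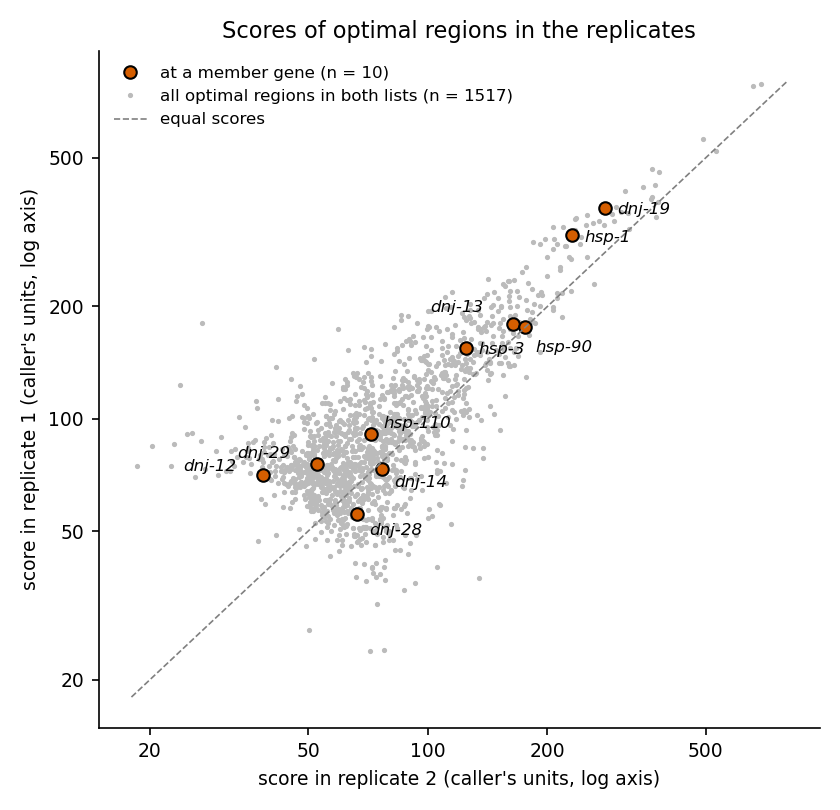
Score in replicate 1 (y axis) against score in replicate 2 (x axis), both in the caller's units on log scales, for the 10 optimal regions at member genes (orange) and the 1517 optimal regions found in both lists (grey), which include them. The dashed line marks equal scores; dnj-19, hsp-1, dnj-13, hsp-90 and hsp-3 stand above 100 in both replicates, and dnj-12 lies farthest above the line among the members.

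The heat-induced list held hsp-70, an inducible cytosolic Hsp70 gene, and 6 small heat shock protein genes of the hsp-16 family. It had no optimal region within 500 bp (0 of 7, beside 3.42% of all genes). Heat-induced genes without an hsp- or dnj- symbol were not counted, so the 0 does not speak for them. Among those genes, F44E5.4 and F44E5.5 each had an optimal region within 500 bp. Only 3 of the 7 listed genes lie in sequence that is not repeated, and a count of 0 of 3 sets no limit on the share. The labels describe no heat treatment, so the heat-induced genes were examined only in larvae with no stress named beyond the starvation at L1. The divergent genes hsp-16.2 and hsp-16.41 shared 1 relaxed region (chrV:1804965-1805388) with a score of 103, and 56.3 in replicate 1 and 41.5 in replicate 2. Its summit lay 220 bp upstream of hsp-16.2 and 1 bp upstream of hsp-16.41. At rank 1898 it was just below the optimal list. At hsp-70, on chromosome I, a relaxed region 151 bp upstream scored 85.1, with 43.9 in replicate 1 and 35.8 in replicate 2 (rank 3139). Both replicates thus held a region at these genes. The pooled scores were below every optimal region, as for any relaxed-only region, because the optimal list holds the highest pooled scores. The replicate scores were not all lower. The region of hsp-16.2 and hsp-16.41 scored above that of dnj-28 in replicate 1 (55.5) and that of dnj-12 in replicate 2 (38.5).

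The other heat-induced genes, hsp-16.1, hsp-16.11, hsp-16.48 and hsp-16.49, form an inverted duplication on chromosome V, and no list held a summit within 500 bp of them. In that window every 50-base stretch occurred more than once in the genome, against a median of 0% of stretches over all genes. A 50-base read from these 4 promoters could not be placed uniquely, and how the authors' processing treated such reads is not given in the sources used here. No statement on binding there can be made from the missing regions. For 48 of the 53 members under 10% of the stretches were repeated, including hsp-16.2, hsp-16.41 and hsp-70.

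The organelle-stress list held genes induced by misfolding in mitochondria (hsp-6, hsp-60 and dnj-10) or in the endoplasmic reticulum (hsp-4 and dnj-27), and had 0 of 5 within 500 bp. Optimal regions nevertheless lay just beyond that distance at both mitochondrial chaperone genes. The hsp-60 region (chrIII:1619094-1619216) scored 312, with 174 in replicate 1 and 134 in replicate 2. Its summit lay 601 bp upstream of hsp-60, the mitochondrial chaperonin gene, and 212 bp upstream of the divergent gene Y22D7AL.10, annotated as the mitochondrial 10 kDa heat shock protein, which is the lid of that chaperonin. Near the annotated starts of hsp-60 itself a relaxed region in a coding exon scored 63.8, with 36.9 in replicate 1 and 28.6 in replicate 2. The 2 genes of 1 folding machine therefore flank a region ranked 135 of the pooled list.

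The hsp-6 gene encodes the mitochondrial Hsp70. Its region (chrV:4827062-4827485) scored 163, with 95.1 in replicate 2, while in replicate 1 the nearest summit, 104 bp away, scored 64.4. The pooled summit lay 514 bp upstream of hsp-6 and 86 bp upstream of C37H5.5, a homolog of a nucleolar complex protein. The mitochondrial DnaJ gene dnj-10 had a relaxed region 155 bp upstream with a score of 51.6, seen in replicate 1 (37.1) and not in replicate 2. At dnj-27, which encodes the ER protein ERdj5, the relaxed regions (63.9 and 61.0) lay within coding exons. The inducible BiP gene hsp-4 had no pooled region within 500 bp. Its nearest pooled summit lay 693 bp from a start and its nearest optimal summit 13652 bp. The constitutive counterpart hsp-3 had one of the stronger member regions, with its summit 388 bp upstream.

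With a window of 1000 bp, 13 members had an optimal region (24.5%, beside 4.93% of all genes). The added genes were hsp-6, hsp-60 and hsp-12.3, a small heat shock protein gene with summits 515 and 715 bp downstream of its start, the first of them in an untranslated exon of hsp-12.3. Those summits (scores 195 and 262) lay 157 bp downstream and 43 bp upstream of the start of the snRNA gene F38E11.10. In this window the stress-induced genes counted 2 of 12. The contrast between constitutive and stress-induced genes thus depends on the distance. At 250 bp it is gone, with 0 of 6 constitutive and 0 of 12 stress-induced genes, beside 2.05% of all genes. With nearest starts alone 2 of 6 constitutive genes (hsp-1 and hsp-3) and 0 of 12 stress-induced genes kept a region, beside 2.88%. The pooled relaxed list gave 5 of 6 constitutive and 6 of 12 stress-induced genes at 500 bp, beside 33.1% of all genes. At 250 bp it gave 1 of 6 and 6 of 12, beside 20.9%.

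**Figure D4:**
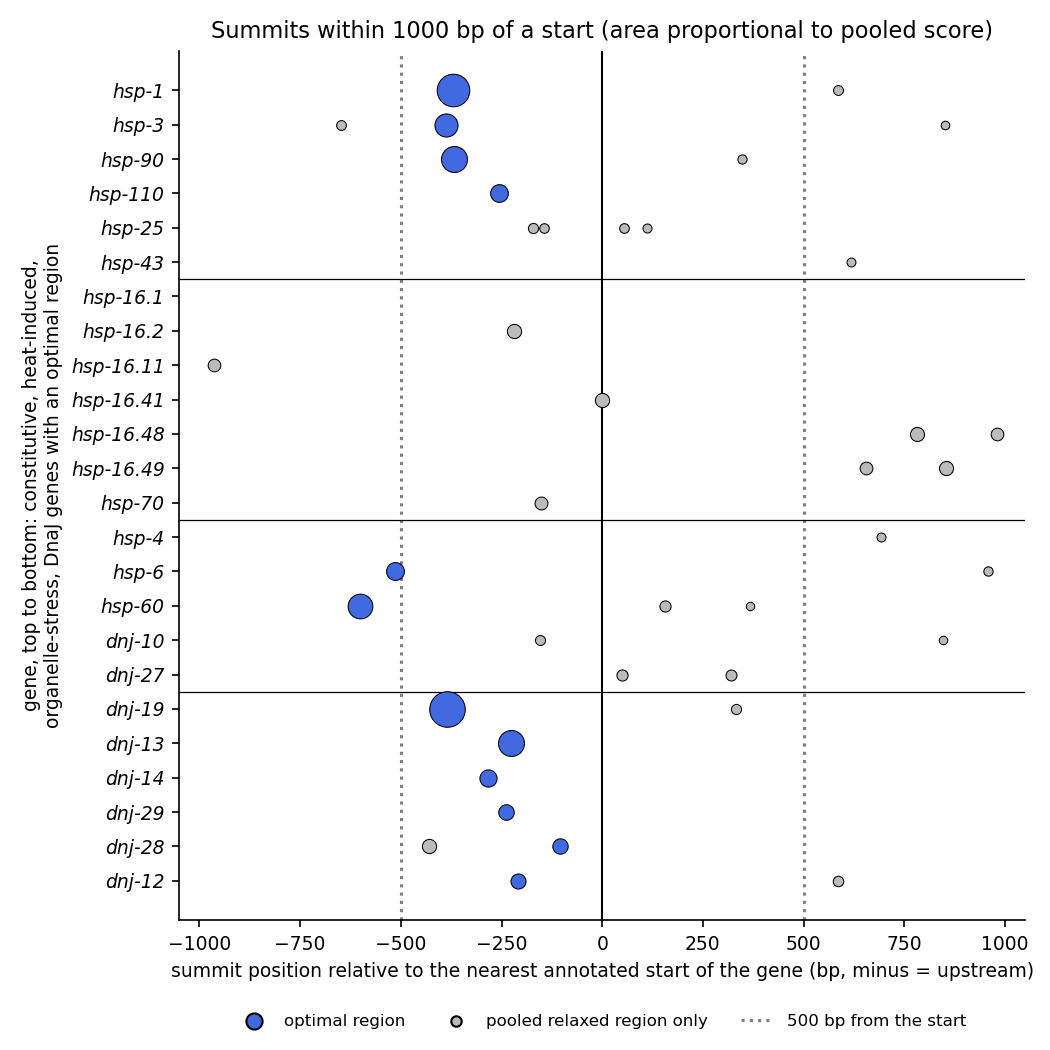
Position of summits relative to the nearest start of each gene (x axis, bp, minus is upstream; dotted lines at 500 bp) for the genes of the constitutive, heat-induced and organelle-stress lists and the DnaJ genes with an optimal region (y axis, in that order from the top); circle area is proportional to the pooled score, blue marks optimal and grey relaxed-only regions. The optimal summits of the 10 members lie 106 to 388 bp upstream of a start, and those of hsp-6 and hsp-60 at 514 and 601 bp upstream.

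The choice of genes did not use the position of regions, and most optimal regions at all genes lay upstream, as the member regions did. All 10 optimal summits lay outside protein-coding genes and upstream of the member's start, at a distance of 106 to 388 bp and a median of -269 bp. The share outside protein-coding genes was not counted over all optimal regions. Noncoding RNA genes were left out of this placement, though some start near the summits. The dnj-13 summit lay 10 bp downstream of the start of the ncRNA gene F54D5.22, and the dnj-19 summit 23 bp downstream of that of C24G6.10. Over all 716 pairs of a gene and an optimal region, 84.5% lay upstream, with a median of -187 bp. Within 250 bp only dnj-12, dnj-13, dnj-28 and dnj-29 kept a region (7.55%, beside 2.05% of all genes), and no hsp gene did. A pooled relaxed region was within 250 bp of 16 members (30.2%, beside 20.9% of all genes). By contrast, of the 26 member pairs with a relaxed-only region 13 lay upstream, beside 50.3% of all 7630 such pairs. Of the 26, 9 had the summit in a coding exon, a share not computed over all such pairs.

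Most member regions lay between divergent genes. Another protein-coding start was within 500 bp for 7 of the 10 (mtx-1, glit-1, nhr-47, supr-1, ndua-2, C47E8.4 and rpn-3), beside 30.4% of all 716 pairs. When each region was given only to the gene with the nearest start, 6 members kept one (11.3%, beside 2.88% of all genes): hsp-1, hsp-3, dnj-12, dnj-13, dnj-28 and dnj-29. At the divergent pairs, binding that belongs to the member and binding that belongs to its neighbour cannot be told apart. Of the 12 members whose start follows the end of another gene on the same strand within 500 bp, 0 had an optimal region. Operons and crowded genes put their downstream members in such places. The 0 allows up to 25% of the 12, beside 2.75% of the 3602 such genes in all. Of the other 41 members 10 had one (24.4%, beside 3.57%). Since 25% lies above both 2.75% and 24.4%, the 0 by itself does not set the 12 apart.

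In sequence, 6 of the 10 member windows held a pair of facing heat shock pentamers, GAANNTTC or TTCNNGAA: hsp-1, hsp-90, hsp-110, dnj-12, dnj-13 and dnj-19. Over all 1604 optimal windows of the same 151 bp, 9.79% did, and 4531 of the 28025 relaxed windows below the optimal list did. The arrangement TTCNNGAA was in 3 of the 10 (hsp-90, hsp-110 and dnj-12), beside 5.80% of optimal windows. GAANNTTC, added to the search after the data were seen, was in all 6, beside 5.36%. Each arrangement is its own reverse complement, so both strands were covered. An element of 3 alternating pentamers (GAANNTTC followed by NNGAA, or TTCNNGAA followed by NNTTC) contains both arrangements and was in 2 of the 10, hsp-110 and dnj-12, beside 1.18% of optimal windows. No pair was found in the windows of hsp-3, dnj-14, dnj-28 and dnj-29.

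In the 500 bp before the start, the pair was found at 33 of 53 members (62.3%), beside 48.3% of all genes. It was at 7 of the 10 members with an optimal region, so it was common at members with and without one. The element of 3 pentamers was at 12 of 53 members (22.6%) and 4 of the 10. By list it was found at 7 of 7 heat-induced genes, 2 of 6 constitutive genes and 1 of 5 organelle-stress genes, beside 3.25% of all 19971 genes. The heat-induced count is not of separate sequences, since the inverted duplication repeats 1 pair of promoters and hsp-16.2 and hsp-16.41 share theirs. The weaker relaxed windows held the pair more often than the optimal ones but the element of 3 pentamers less often (0.778%, against 1.18% of optimal windows). Their median GC content was 40.4%, against 47.7% in optimal windows. Other letters searched were common across the optimal list. GAGAGA or its complement was in 4 of 10 member windows and 34.5% of optimal windows, and GACGC or its complement in 3 of 10 and 31.4%. A match is a description of letters and not of a bound site.

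The remaining members had relaxed regions only, or none. Besides those already named, dnj-9 had a region 258 bp upstream with a score of 94.4, most of it from replicate 2 (61.5, against 36.2 in replicate 1). The hsp-16 relative hsp-16.20 had one 93 bp downstream with a score of 91.3, and 44.3 in replicate 1 and 44.0 in replicate 2, close to the snRNA gene F08H9.10. Those of dnj-20 (ERdj3 homolog; 76.8 and 60.4), dnj-4 (61.1 and 41.8) and dnj-24 (59.8) were weaker. Those of hsp-75, the mitochondrial Hsp90 (45.4), dnj-18 (42.8), dnj-15 (41.2) and dnj-30 (36.5) were below the median of the pooled list. With optimal regions included, the strongest pooled region had a median score of 92.8 over the 26 members with any, beside 53.8 over the 6607 genes with any. The median over members with relaxed regions only was not computed.

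Of the 27 members with no pooled region, 18 had none in either replicate list, 7 had one in replicate 2 alone and 2 in replicate 1 alone. Those with none in any list were the DnaJ genes dnj-1, dnj-2, dnj-3, dnj-5, dnj-11, dnj-16, dnj-17, dnj-23, dnj-25 and dnj-26, and the small heat shock protein genes hsp-12.2, hsp-12.3, hsp-16.1, hsp-16.11, hsp-16.48, hsp-16.49, hsp-17 and hsp-43. In replicate 2 alone a region was listed at hsp-4, hsp-6, hsp-12.1, hsp-12.6, hsp-16.21, dnj-7 and dnj-8. In replicate 1 alone one was listed at dnj-21, which is annotated as a subunit of the mitochondrial import motor, and at dnj-22. Apart from hsp-6 (95.1), whose replicate 1 summit lay beyond 500 bp, these scored at most 30.8, near the replicate medians of 29.9 and 25.3. The relaxed lists of replicates 1 and 2 reach 32.9% and 32.2% of all genes.

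Other genes of the folding network, a list of 48 with chaperonin, prefoldin, co-chaperone, endoplasmic reticulum folding and stress-response genes, had an optimal region in 13 cases (27.1%, exact 95% interval 15.3 to 41.8, beside 3.42% of all genes), and 36 of them had a pooled relaxed one. The regions of cct-1, cct-7, cct-8, pfd-1, enpl-1 and clpp-1 also lay within 500 bp of another protein-coding start. Genes for folding in the endoplasmic reticulum had 4 of 7: the calreticulin gene crt-1 (score 209), the protein disulfide isomerase genes pdi-2 (199.7) and pdi-6 (162), and enpl-1, the Hsp90 of that compartment (132). The constitutive hsp-3 and the translocation gene dnj-29, described above, act in the same compartment. The chaperonin genes had 3 of 8, cct-8 (409), cct-7 (188) and cct-1 (186). The cct-8 gene lies 19583 bp from znf-782, the gene the transgene carries, while no member is closer to it than 3108863 bp; whether transgene DNA adds to the cct-8 score was not tested.

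Co-chaperones followed with bag-1 (279), a BAG-domain nucleotide exchange factor of Hsp70, and unc-23 (151), also a BAG-domain gene, 2 of 13. Prefoldin had pfd-1 (202), 1 of 6. Among regulators of stress responses, xbp-1 (224, with 127 in replicate 1 and 94.0 in replicate 2) and atf-6 (172, with 93.1 and 77.3 in the same order) had a region, 2 of 12. Both encode transcription factors of the unfolded protein response of the endoplasmic reticulum. The mitochondrial protease gene clpp-1 had one near the lower end of the list (112). The heat shock factor gene hsf-1, named after its value was seen, had no pooled region within 500 bp.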

How the data were processed

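Binding of Y55F3AM.14 tagged with EGFP was measured in 2 biological replicates of 1 group, so no test between groups was possible and members are described by counts beside all genes. The authors deposited 4 narrowPeak lists on build ce11. Per the README deposited with the samples, each relaxed list came from alignments and 1 control, and the optimal list from the replicate and pooled lists by an irreproducible discovery rate threshold. The deposited score is the caller's signal value, the deposited −log10 q value was not used for calls, and the deposited summit offset gave each position. The sources used here name no aligner, no caller and no treatment of repeated reads, and depth is unknown.

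Starts, exons and sequence came from RefSeq WBcel235, with ce11 coordinates, 1-based. Summits were matched to starts within 500 bp and between lists within 100 bp, and intervals are 95% exact (Clopper-Pearson). A count of 0 allows 3 counts. Motifs were sought within 75 bp of summits and in the 500 bp before the outermost start. Python 3.11.15, NumPy 2.4.6, SciPy 1.17.1, Biopython 1.88 and matplotlib 3.10.9 were used, and the matching was tested on simulated lists. Alternatives changed the distance, the gene assignment, the threshold, the replicates and, added after the data were seen, the genes counted (without those whose window is repeated).

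The members and the constitutive, heat-induced, organelle-stress and network lists were chosen from textbook knowledge with earlier results of these data known. Named genes are all members with an optimal or pooled region, all genes of the class lists, neighbours sharing a region, and network genes with an optimal region. Other members are named where a count lists them. The GAANNTTC arrangement was added to the motif search after the data were seen.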

Additional observations from a re-analysis of the deposited data

How the results depend on the processing

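Of the counts recomputed under another setting, 32 stayed within 1.5 times their value and 18 did not. With summits within 250 bp, an optimal region lay at 4 members, 0 hsp, 0 constitutive and 8 network genes, beside 2.05% of all genes. A pooled one lay at 16 members, beside 20.9% of all genes. With 1000 bp these were 7 hsp genes, 2 stress-induced genes and 40 members with a pooled region. Giving each region to the nearest gene alone left 6 members, 2 hsp genes and 2 constitutive genes, beside 2.88% of all genes. The 802 highest-scoring optimal regions left 3 dnj genes. The pooled relaxed list, which reaches 33.1% of all genes, gave 26 of 53 members, 11 of 24 hsp, 15 of 29 dnj, 6 of 12 stress-induced and 36 of 48 network genes. When either replicate was left out, 9 to 10 members had a region, and 0 to 1 of the stress-induced genes, the 1 being hsp-6 without replicate 1. The replicate 1 summit near hsp-6 lay beyond 500 bp of its start. The constitutive count of 4 was the same without either replicate. Leaving out genes with repeated windows, a choice made after seeing the data, gave 10 of 49 members (20.4%, beside 3.50% of 19504 genes), 4 of 6 constitutive and 0 of 8 stress-induced genes. No paired analysis was possible because there was 1 group and no test between groups. Depth is unknown, so how far low scores reflect depth was not tested.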
